A study of Rattus norvegicus with 18 samples.

Results

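Genes that carry a sperm or flagellum name were followed in rat testis RNA after chronic sleep restriction (CSR). The set holds every listed RefSeq transcript whose rat symbol starts with *Spag*, *Spata*, *Spaca*, *Odf* and a digit, *Tekt*, *Akap*, *Cfap*, *Ropn1*, *Catsper*, *Tsga*, *Tsks*, *Tssk* or *Ccdc*. The rule uses names and no expression value, but it was set with earlier results of these data known. The set is therefore only described. The set has 132 transcripts of 128 genes, out of 7016 transcripts in the deposited table. Poly(A) RNA came from whole testes of Wistar rats aged 8 weeks, in 3 libraries labelled CSR and 3 labelled control. Only the sleep restriction named in the labels separates the groups, and the labels give neither its duration nor a genetic change. Whether the libraries of a group are separate animals is not stated, and every p-value measures only the spread between these libraries, which may be technical. The names are a mixed label: *Ccdc* (51 transcripts) marks any protein with a coiled coil and *Akap* (9 transcripts) any anchor of protein kinase A, and both groups include genes of general cell functions such as *Ccdc47* of the endoplasmic reticulum and the nuclear anchor *Akap8*. The other 72 transcripts carry names given for sperm, testis or cilium.

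A sperm tail is built around an axoneme, a ring of doublet microtubules with dynein motors, whose lumen is lined by tektins and other inner proteins. Around it lie the outer dense fibres and, further back, the fibrous sheath, a scaffold that holds protein kinase A and glycolytic enzymes. The messages for these parts are made mainly in late spermatocytes and spermatids, where factors of the RFX and CREM families drive many of them, and much of that RNA is stored before it is translated.

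Promoter letters were read from RefSeq (build GRCr8) for 110 of the 128 genes, from 250 bases before to 50 bases after the start. A GTTGCC on either strand, the letters of a half-site bound by RFX factors, stood in the window of 27 of these 110 genes (24.5%), against 14.3% of 5565 genes in the deposited table with a window and 13.1% of all 27457 genes with a window. It was in 4 of 6 *Tekt* windows, 3 of 6 *Spag* windows, both *Ropn1* windows, 4 of 14 *Cfap*, 9 of 40 *Ccdc*, 4 of 18 *Spata* and 1 of 4 *Spaca* windows. It was in 0 of 8 *Akap*, 0 of 8 *Tsga*, *Tsks* and *Tssk*, 0 of 4 *Odf* and 0 of 2 *Catsper* windows (112 windows of the 110 genes in all). The paired form GTTNCCNNGGNAAC, which can contain the half-site, was found in 1 gene of the 110, *Cfap298*. The cyclic AMP response element TGACGTCA stood in 5 of the 110 (4.55%, against 3.94% of listed genes), and AACNGNC, letters of a MYB site, in 42 (38.2%, against 37.2%). These are matches of letters and not measured sites. The windows below belong to 4 of the 9 transcripts that were called when control library 3 was left out, 2 with the half-site and 2 without. This choice does not give the share among the 9, of which *Ccdc182* and *Ccdc124* also lacked the half-site in their windows. Capitals mark GTTGCC or its complement.

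Cfap298, chr11:43677333-43677632, minus strand: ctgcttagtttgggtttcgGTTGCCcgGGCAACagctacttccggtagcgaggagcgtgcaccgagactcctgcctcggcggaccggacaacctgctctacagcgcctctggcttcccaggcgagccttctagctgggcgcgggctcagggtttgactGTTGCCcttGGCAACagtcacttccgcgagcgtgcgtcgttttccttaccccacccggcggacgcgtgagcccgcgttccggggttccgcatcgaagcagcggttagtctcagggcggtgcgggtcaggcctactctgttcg
Spag8, chr5:62699615-62699914, minus strand: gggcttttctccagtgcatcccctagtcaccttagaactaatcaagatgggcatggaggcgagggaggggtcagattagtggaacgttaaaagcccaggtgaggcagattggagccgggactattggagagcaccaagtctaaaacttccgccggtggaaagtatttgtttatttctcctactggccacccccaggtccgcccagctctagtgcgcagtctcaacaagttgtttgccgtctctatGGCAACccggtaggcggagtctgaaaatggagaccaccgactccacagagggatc
Tsks, chr1:104563821-104564120, plus strand: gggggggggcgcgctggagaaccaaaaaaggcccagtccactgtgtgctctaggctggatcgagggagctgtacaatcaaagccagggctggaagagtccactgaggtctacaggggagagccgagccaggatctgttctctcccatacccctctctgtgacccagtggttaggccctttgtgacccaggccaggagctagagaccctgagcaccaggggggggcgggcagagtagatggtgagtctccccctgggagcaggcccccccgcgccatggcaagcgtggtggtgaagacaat
Cfap45, chr13:87521581-87521880, plus strand: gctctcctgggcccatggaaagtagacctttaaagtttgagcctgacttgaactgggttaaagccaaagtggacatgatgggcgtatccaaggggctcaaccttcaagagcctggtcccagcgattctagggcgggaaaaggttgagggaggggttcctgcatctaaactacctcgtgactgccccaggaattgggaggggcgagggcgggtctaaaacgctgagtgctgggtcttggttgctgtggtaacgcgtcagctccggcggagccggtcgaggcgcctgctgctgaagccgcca

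*Cfap298* (a factor of dynein arm assembly) shows the letters 4 times, in facing pairs, and *Spag8* (a microtubule inner protein) shows them once. *Tsks*, the substrate of testis-specific serine kinases, and *Cfap45*, another microtubule inner protein, hold none in these windows, which says nothing of other places or spellings. Whether the letters bear on the RNA levels was not tested.

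In the distances between them, the libraries did not group by their labels over these genes, which bears on every comparison that follows. Levels are FPKM, fragment counts scaled to transcript length and to the mapped total of the library, whose read depth is unknown. Distances are the median absolute difference in log2(FPKM + 1) over 121 transcripts of the set, those that reached 1 FPKM in 3 or more libraries. Control libraries 1 and 2 lay 0.133 apart, and control library 3 lay 0.337 and 0.303 from them. To the 3 CSR libraries, however, control library 3 stood at 0.154, 0.131 and 0.184, no farther than the CSR libraries stood from each other (0.164 to 0.206). Control libraries 1 and 2 stood 0.330 to 0.389 from the CSR libraries. At 93 of the 121 transcripts (76.9%, against 58.6% of all 5657 tested transcripts) control library 3 was nearer to the CSR mean than to the mean of the other controls. For each of the other 5 libraries, the corresponding count was 27 to 45. The submitters' codes of control libraries 1 and 2 share all but the final digit, and whether they share an animal is not given. Listed values at 0, unlike the distances, followed the labels. Over all transcripts they made up 14.3 to 20.2% of each CSR library and 3.92 to 6.03% of each control library, and in the sperm-named set 4.55 to 8.33% and 0.758 to 3.03%.

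**Figure D1:**
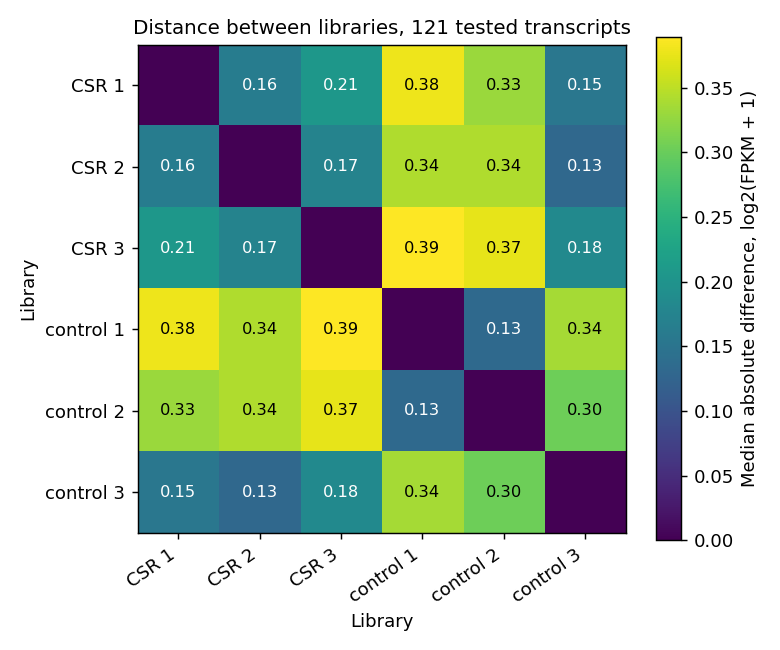
Median absolute difference in log2(FPKM + 1) between each pair of the 6 RNA libraries (both axes) over the 121 tested sperm-named transcripts, with darker cells for closer libraries. Control 3 stands 0.13 to 0.18 from the CSR libraries and 0.30 to 0.34 from controls 1 and 2.

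The testis label could be read from germ cell and somatic markers. In 9 spermatid genes of a list of 11 (another, *Tssk6*, belongs to the set itself) the summed level was 16680, 19506 and 17341 FPKM under CSR and 9664, 11094 and 17866 FPKM in control libraries 1, 2 and 3. In this sum control library 3 was thus with the CSR libraries too. The sum is carried largely by *Tnp1*, *Oaz3*, *Tnp2* and *Prm1*, and its genes did not all split this way. *Prm1* read 3029, 2572 and 968 FPKM under CSR and 0.0934, 0.0981 and 877 in controls, and *Prm2* 0.750 and 0.407 in controls 1 and 2. *Tnp1* read 3903 FPKM in CSR library 1, below every control, and *Acrv1* ranged only from 94.9 to 119 FPKM over the libraries. Summed Sertoli cell markers (7 of 12 listed) ran from 77.5 to 83.8 FPKM under CSR and from 85.2 to 96.9 in controls, and macrophage markers (5 of 7) from 7.68 to 11.2 and from 11.9 to 16.2. Each of these gaps rests on 1 gene: without *Ctsl* the Sertoli sums were 44.5 to 53.4 FPKM under CSR and 45.1 to 55.8 in controls, and without *Lyz2* the macrophage sums were 3.7 to 6.49 FPKM under CSR and 5.33 to 9.2 in controls. Leydig cell markers (5 of 7) spanned 68.2 to 118 FPKM under CSR and 67.7 to 89.7 in controls, peritubular myoid markers (7 of 8) 21.6 to 26.1 and 23.0 to 28.4, and spermatocyte markers (5 of 11) 219 to 275 and 158 to 250. In 2 of these overlapping sums, 1 marker each passed the limma adjusted threshold (adjusted p = 0.0421 for both). *Ccna1*, a meiotic cyclin, rose, with 10.7, 5.59 and 6.06 FPKM under CSR and 0.875, 0.841 and 0.735 in controls. *Col1a1*, a collagen chain, was lower, listed at 0 in all CSR libraries and at 2.30, 2.14 and 2.73 FPKM in controls. Such a 0 can be a failed estimate. Of all listed transcripts, 2.88% were at 0 in all CSR and above 0 in all control libraries, against 0.0143% the other way. Groups also did not overlap for the spermatocyte markers *Hormad1* (lower in CSR), *Hspa2* and *Pgk2* (both higher). Of the 10 spermatid transcripts tested, 9 were higher in CSR and 1 lower. Without overlap, 3 of them were higher, *Acr*, *Tnp2* and *Prm1* (30%, against 8.96% of all tested transcripts), and 0 lower. The peritubular myoid marker *Myh11* went the other way from *Col1a1* without overlap, with 15.8, 17.0 and 14.7 FPKM under CSR and 12.6, 10.8 and 14.2 in controls. The Leydig cell marker *Hsd17b3*, too low to be tested, was lower in CSR without overlap, but was listed at 0 in CSR libraries 1 and 3. No listed marker of these lists was at 0 in all 6 libraries. In whole testis, fewer cells of a type and less RNA per cell cannot be told apart, and the part of these shifts in the values that follow was not tested.

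As a set the sperm-named transcripts were abundant. The median of their mean levels was 14.9 FPKM, against 4.0 FPKM for all listed transcripts, and 99 of 132 (75%) lay above the latter. Among the 100 highest transcripts of the table were 9 of them; 16 had a mean over 100 FPKM, 62 between 10 and 100, and 54 under 10. Together they held 4.46, 4.87 and 5.10% of the listed FPKM under CSR and 4.90, 4.97 and 4.70% in controls, so the groups overlapped in this share. By name, the median level was 324.5 FPKM for *Ropn1* (2 transcripts), 289 for *Odf* (3), 87.2 for *Tekt* (7), 83.3 for *Spata* (18), 68.8 for *Spaca* (4), 31.3 for *Cfap* (18), 21.6 for *Tsga*, *Tsks* and *Tssk* (10), 12.8 for *Spag* (7), 8.58 for *Akap* (9), 6.07 for *Ccdc* (51) and 1.78 for *Catsper* (3).

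Among the tail's accessory structures, the outer dense fibre scaffold *Odf2* was the most abundant of the set. Its transcript NM_017213, with a mean of 578 FPKM and rank 15 of all listed transcripts, read 582, 734 and 629 FPKM under CSR and 463, 474 and 585 in controls. The second *Odf2* transcript, NM_001145005, read 312, 292 and 340 FPKM under CSR and 204, 306 and 283 in controls. *Odf4*, an outer dense fibre protein, was far lower, at 20.2 ± 5.76 FPKM under CSR and 15.7 ± 2.64 in controls (SD, n = 3 each, as for all such values). In all 3 transcripts the groups overlapped, and the lowest value was in control library 1 or 2. The log2 fold change of NM_017213, CSR minus control, was 0.35 with a standard error of 0.14 and a limma adjusted p of 0.372. *Ropn1l*, a binder of kinase A anchors in the radial spokes, went the other way, at 442, 495 and 529 FPKM under CSR and 706, 706 and 511 in controls. Only controls 1 and 2 stood apart there, and the adjusted p was 0.372. Its relative *Ropn1*, a fibrous sheath protein, read 80.7, 85.4 and 60.9 FPKM under CSR and 84.9, 112 and 82.1 in controls. *Akap3*, a main anchor of the fibrous sheath, read 51.7, 55.1 and 54.0 FPKM under CSR and 45.5, 40.3 and 52.9 in controls.

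Among the tektins, *Tekt2* was highest, above *Tekt3* and *Tekt4* in all 6 libraries. *Tekt2* had 117 ± 15.9 FPKM under CSR and 109 ± 12.8 in controls, *Tekt3* 85.5 ± 0.742 and 92.9 ± 5.91, and *Tekt4* 91.6 ± 3.73 and 84.9 ± 11.9. The ranges of *Tekt3* and *Tekt4* over the libraries overlapped, while the lowest value of *Tekt2* (99.4) lay above the highest of both. *Tekt5* was lower, between 29.0 and 40.5 FPKM in all libraries. *Tekt1* read 88.1, 98.6 and 91.2 FPKM under CSR and 80.5, 79.5 and 85.4 in controls, without overlap, yet with a log2 fold change of only 0.18 (SE 0.08, limma adjusted p = 0.389).

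Among the *Cfap* genes of cilia and flagella, *Cfap36* had 258 ± 4.28 FPKM under CSR and 235 ± 30.3 in controls, and *Cfap206*, a protein at the base of a radial spoke, 192 ± 7.72 and 182 ± 8.28. *Cfap161*, a microtubule inner protein, followed with 76.8 ± 8.33 and 87.5 ± 2.00 FPKM. Of the coiled-coil names, *Ccdc92* (204 ± 18.3 FPKM under CSR and 158 ± 30.9 in controls), *Ccdc181* (141 to 166 over all libraries) and *Ccdc179* (77.1 ± 13.3 and 84.6 ± 7.98) were highest. *Ccdc65*, a subunit of the nexin-dynein regulatory complex, read 72.9, 77.9 and 75.7 FPKM under CSR and 66.5, 64.2 and 67.4 in controls, a log2 fold change of 0.19.

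In the sperm head and neck, *Spaca4*, a membrane protein of sperm-egg contact, read 88.7, 90.6 and 107 FPKM under CSR and 60.3, 71.5 and 101 in controls. *Spaca1*, of the acrosomal membrane, had 65.1 ± 4.05 and 76.6 ± 9.14 FPKM. *Spata6*, which is needed for the connecting piece between head and tail, read 192, 197 and 187 FPKM under CSR and 254, 272 and 195 in controls, so that control library 3 lay inside the CSR range. *Spata20*, a thioredoxin-like protein, had 491 ± 14.5 and 432 ± 35.3 FPKM, the highest of the *Spata* names. *Spata7*, a protein of the photoreceptor cilium, read 98.6 FPKM in CSR library 1 and between 266 and 306 in the other libraries.

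Of the kinases of the *Tssk* family, which act in spermatids, *Tssk2* had 142 ± 11.4 FPKM under CSR and 124 ± 4.89 in controls, *Tssk6* 77.4 ± 35.9 and 104 ± 20.4, and *Tssk3* 85.4 ± 2.07 and 85.5 ± 4.72. The log2 fold change of *Tssk3* was -0.00042, with a 95% interval of -0.19 to 0.19. The sperm calcium channel was covered by *Catsper2*, a pore subunit, at 45.0, 32.9 and 32.0 FPKM under CSR and 50.8, 57.3 and 40.5 in controls, and by accessory subunits at far lower levels. *Catsperd* had 1.64 ± 0.512 and 1.93 ± 0.349 FPKM, and *Catsperg* read 1.55, 0 and 0 FPKM under CSR and 0.749, 0.712 and 0.945 in controls. Among *Spag* names, *Spag8* had 69.2 ± 0.824 FPKM under CSR and 57.6 ± 7.30 in controls, the dynein arm assembly factor *Spag1* 14.7 ± 0.839 and 16.5 ± 0.683, and the spindle protein *Spag5* 15.4 ± 0.849 and 12.8 ± 9.39.

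**Figure D2:**
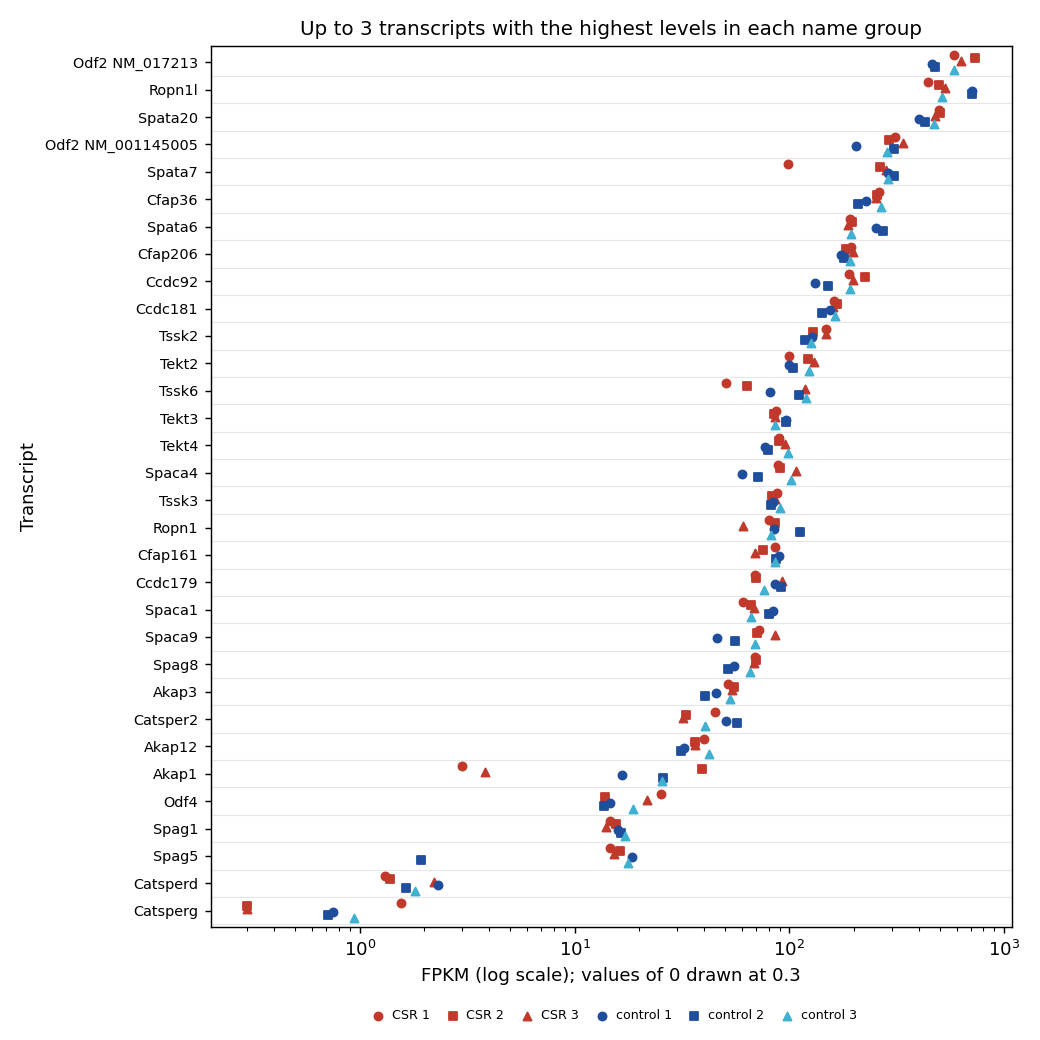
FPKM (log scale) in each of the 6 libraries for the up to 3 transcripts of highest mean level in each name group, ordered by mean, with values of 0 drawn at 0.3. *Odf2* NM_017213, *Ropn1l* and *Spata20* are at the top, while *Catsperd* and *Catsperg* lie near 1 FPKM.

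To ask whether sleep restriction went with other levels of these genes, all 5657 transcripts past the low-value filter were fitted with limma on log2(FPKM + 1) and the rows of the sperm-named set were read from that fit. None of its 121 tested transcripts passed an adjusted p of 0.05 (Benjamini-Hochberg over all 5657), where 0.442% of all tested transcripts did. An unadjusted p under 0.05 was reached by 12 of the 121, against 13.2% of all tested transcripts, and the smallest adjusted p was 0.251, for *Akap10*. Without control library 3, 9 of the 121 passed the adjusted threshold, against 4.58% of all tested transcripts. A fit without control libraries 1 and 2 sets 1 control library against 3 CSR libraries, so its count cannot be compared with that one. The median log2 fold change was 0.10, with quartiles of -0.14 and 0.31, beside a median of -0.06 over all tested transcripts. In CSR, 74 transcripts were higher (61.2%, against 44.0% of all tested transcripts) and 47 lower. These shares were not matched for level: the set was more abundant than all listed transcripts and held fewer listed zeros. The set's median was 0.21 without control library 3 and -0.02 against control library 3 alone, a single library with no replicate. For 103 of the 121 the fold change was under 1.5 (85.1%, against 79.0% of all tested transcripts). The median half-width of the 95% interval was 0.44 on the log2 scale, and differences smaller than that were hard to see for most of these transcripts.

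By name, *Ccdc* had 27 of 43 tested transcripts higher under CSR and a median log2 fold change of 0.17, *Spata* 12 of 18 (0.12), *Cfap* 11 of 18 (0.03), *Tekt* 5 of 7 (0.12), *Spag* 5 of 6 (0.27), *Odf* 3 of 3 (0.32), *Spaca* 2 of 4 (0.05) and *Tsga*, *Tsks* and *Tssk* 6 of 10 (0.08). *Akap* had 3 of 8 higher (-0.05), and neither *Catsper* (0 of 2, -0.29) nor *Ropn1* (0 of 2, -0.34) had any. Of all tested transcripts 44.0% were higher. No transcript of any name group passed the threshold. Without the *Ccdc* and *Akap* names, 70 tested transcripts remained, with 44 higher, a median of 0.10 and 0 calls.

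**Figure D3:**
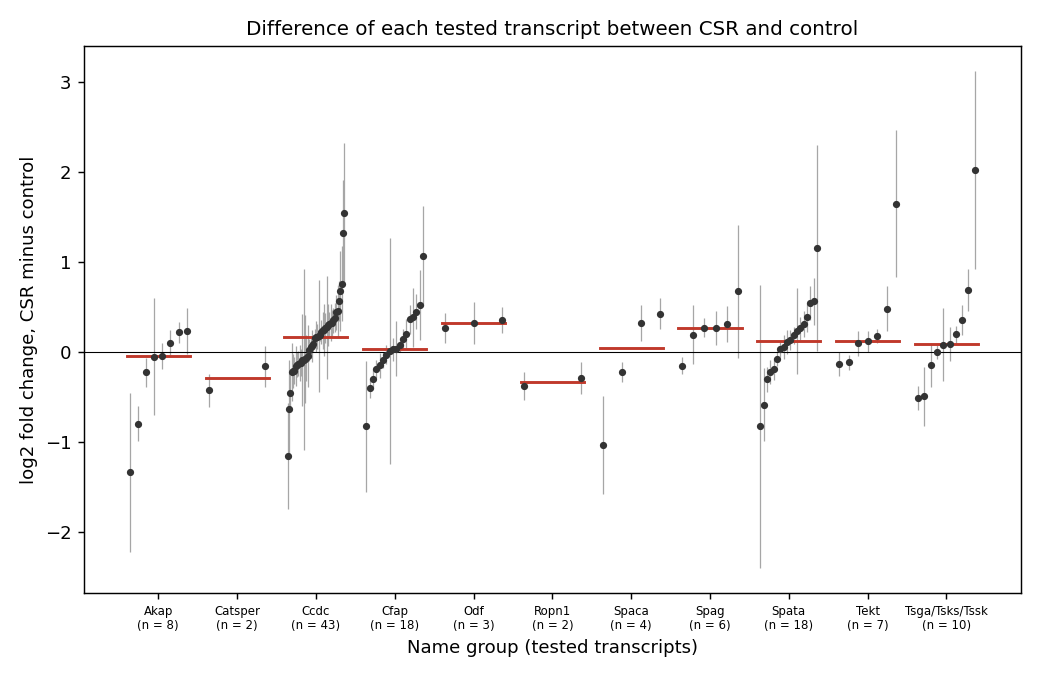
Log2 fold change (CSR minus control, log2(FPKM + 1) scale, with standard error bars) of each tested transcript, by name group, with the group's median as a red line. The medians lie between -0.34 and 0.32, and *Tssk1b* has the highest value, 2.03.

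The values of the 3 CSR and 3 control libraries did not overlap at 25 of the 121 transcripts, against 21.5% of all tested transcripts. CSR was higher at 15 (12.4%, against 8.96% of all tested transcripts) and lower at 10 (8.26%, against 12.6%). None of the 25 passed the adjusted threshold. Several of the differences of largest size came from 1 library. *Tssk1b*, a spermatid kinase, read 3.64, 78.4 and 4.33 FPKM under CSR and 3.07, 1.37 and 2.01 in controls (log2 fold change 2.03, SE 1.10, adjusted p = 0.414 by limma). *Ccdc42*, needed for the sperm neck and manchette, read 4.48, 39.2 and 4.75 FPKM under CSR and 2.50, 2.83 and 2.80 in controls. Both were high in CSR library 2 alone. *Tektip1*, a tektin bundle protein, read 12.3, 17.9 and 14.4 FPKM under CSR and 7.04, 0.290 and 11.2 in controls, and *Cfap68*, a microtubule inner protein, 38.8, 36.3 and 44.0 and 25.9, 6.64 and 34.1. In those 2 genes control library 2 was the low one.

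Other transcripts higher in CSR had steadier CSR values. *Tsks* read 74.5, 78.8 and 74.2 FPKM under CSR and 38.8, 38.3 and 69.0 in controls, a log2 fold change of 0.68 (SE 0.23, adjusted p = 0.363 by limma). *Ccdc7a* read 83.9, 85.6 and 83.4 FPKM under CSR and 24.8, 58.7 and 82.1 in controls. *Spaca9*, a microtubule inner protein also found in the acrosome, read 72.2, 71.0 and 86.1 FPKM under CSR and 46.1, 56.1 and 69.5 in controls. In these 3 genes control library 3 stood just under the CSR range and the other controls well below it. The log2 fold change of *Spaca9* was 0.43. *Ccdc185* (0.35), *Ccdc28a* (0.31) and, at under 2 FPKM in every library, *Spata2L* (0.56) had log2 fold changes of the same sign.

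The 10 transcripts lower in CSR without overlap include *Akap10*, *Tsga13*, *Cfap52* and *Cfap300*. *Akap10*, a dual-specificity anchor of kinase A found at mitochondria and endosomes, read 1.97, 1.81 and 1.79 FPKM under CSR and 3.09, 4.76 and 4.22 in controls (log2 fold change -0.80, SE 0.19). *Tsga13*, a testis-specific gene, read 7.74, 7.47 and 6.04 FPKM under CSR and 11.3, 9.69 and 10.5 in controls (-0.51, SE 0.14, adjusted p = 0.295 by limma). In both genes control library 3 lay with the other controls. *Cfap52*, a microtubule inner protein, read 29.5, 29.1 and 29.7 FPKM under CSR and 42.1, 42.7 and 33.8 in controls (-0.40, SE 0.11, adjusted p = 0.339 by limma). *Cfap300*, of dynein arm assembly, read 7.67, 8.74 and 8.72 FPKM under CSR and at least 10.3 in each control (-0.31). Control library 3 was between the groups for *Cfap52* and within the controls for *Cfap300*. Other log2 fold changes without overlap were those of *Ccdc172* (-0.46), *Cfap161* (-0.19), *Spag1* (-0.15) and *Ccdc127* (-0.13). The values of *Spaca5* (-1.03), a lysozyme-like acrosomal protein, rest on a listed 0 in CSR library 2, and those of *Spata7* (-0.59) on CSR library 1.

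**Figure D4:**
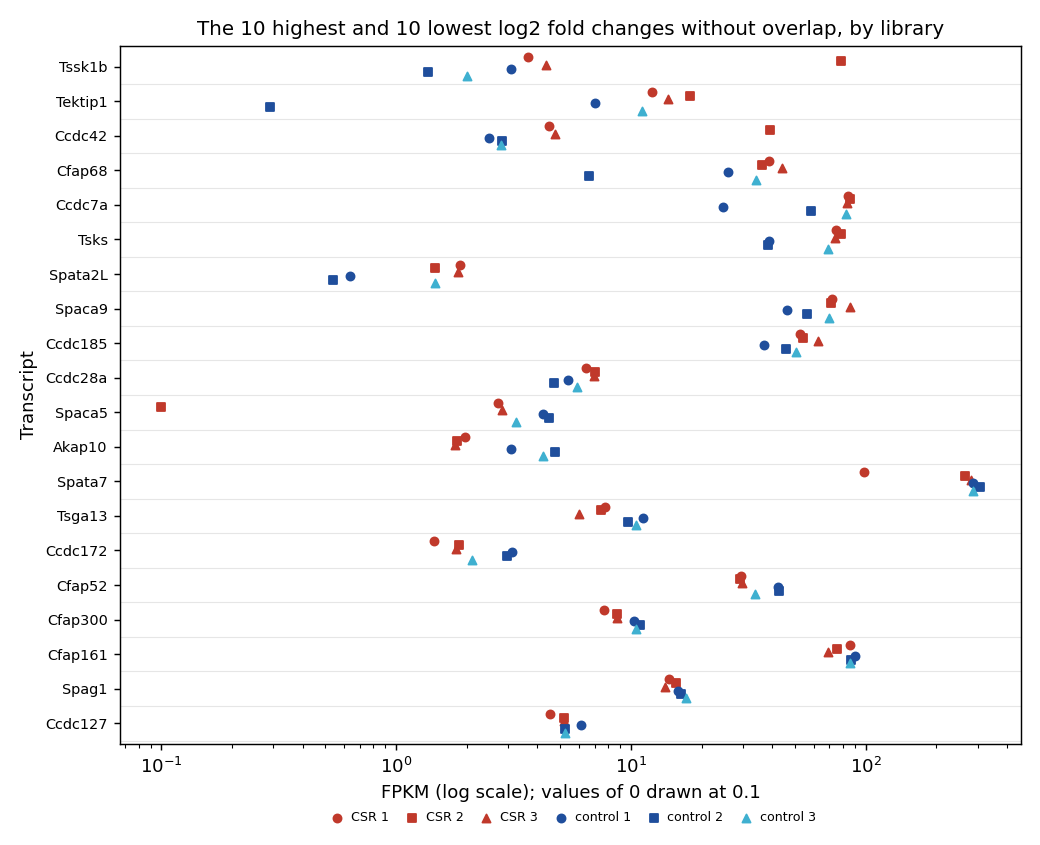
FPKM (log scale) in each library for the 10 transcripts with the highest and the 10 with the lowest log2 fold change among those whose groups do not overlap, with values of 0 drawn at 0.1. Control 3 lies next to the CSR points for *Tsks*, *Ccdc7a* and *Spaca9*, and with the other controls for *Akap10* and *Tsga13*.

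Without control library 3, limma called 9 of the 121 transcripts (7 higher and 2 lower in CSR), against 4.58% of all tested transcripts (2.99% higher, 1.59% lower). These genes were singled out after their values were seen, and leaving that library out by itself favours genes where it differs from the other controls. *Ccdc182* read 23.6, 21.0 and 26.6 FPKM in CSR, 5.25 and 4.74 in controls 1 and 2, and 25.8 in control library 3, with a log2 fold change of 2.04 (SE 0.13, limma adjusted p = 0.0104) without the last library and 1.32 (SE 0.59, adjusted p = 0.381) with it. *Cfap298* read 49.9, 52.5 and 47.0 FPKM under CSR and 29.7, 32.5 and 49.0 in controls, and *Cfap45* 57.8, 58.2 and 53.1 and 38.0, 38.9 and 56.0. *Spata21* stood at 185, 202 and 207 FPKM under CSR and at 128, 142 and 192 in controls. *Ccdc124*, a ribosome-associated protein, read 17.3, 18.2 and 16.3 FPKM under CSR and 9.07, 9.73 and 16.4 in controls. In these 5 genes and in *Spata6*, described above, control library 3 was inside the CSR range. In the other 3, *Tsks*, *Cfap52* and *Spag8* (69.5, 69.9 and 68.3 FPKM under CSR and 55.2, 51.7 and 65.7 in controls), it stood between the CSR range and the other controls. A split of controls 1 and 2 from the CSR libraries is built into this list, since no other control entered that fit. The summed spermatid markers were also lower in controls 1 and 2, whereas *Spata6* and *Cfap52* were higher there. The part of those markers in these values was not tested.

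Some transcripts of the set had a wide range over the 6 libraries. Of the 97 transcripts of the set with a mean of at least 5 FPKM, 13 (13.4%, against 10.6% of 3166 listed transcripts) had a highest value at least 5 times the lowest, a rule set after the values were seen. *Spata33*, a calcineurin anchor of the sperm midpiece, read 10.02, 10.01 and 184 FPKM under CSR and 122, 142 and 6.21 in controls. *Spata24* read 67.4, 264 and 267 FPKM under CSR and 172, 187 and 12.4 in controls. Both were lowest in control library 3, and their low CSR values were in libraries 1 and 2 for *Spata33* and in library 1 for *Spata24*. *Akap1*, the kinase A anchor of the outer mitochondrial membrane, read 2.99, 39.3 and 3.84 FPKM under CSR and 16.6, 25.9 and 25.6 in controls. *Cfap141*, a microtubule inner protein, was at 1.61 FPKM in CSR library 2 and between 13.9 and 17.1 elsewhere, *Spag5* at 1.92 in control library 2 and between 14.6 and 18.6 elsewhere, and *Cfap77* was listed at 0 in CSR library 2 and control library 1 and between 7.56 and 9.71 elsewhere. The same rule took in *Ccdc174* and *Ccdc97*, whose lowest values (1.74 and 1.80 FPKM) were in controls, besides *Ccdc182*, *Ccdc42*, *Cfap68*, *Tektip1* and *Tssk1b*, given above. None of the 13 passed the threshold. The median within-group SD on the log2 scale was 0.22 for the set and 0.26 for all tested transcripts.

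**Figure D5:**
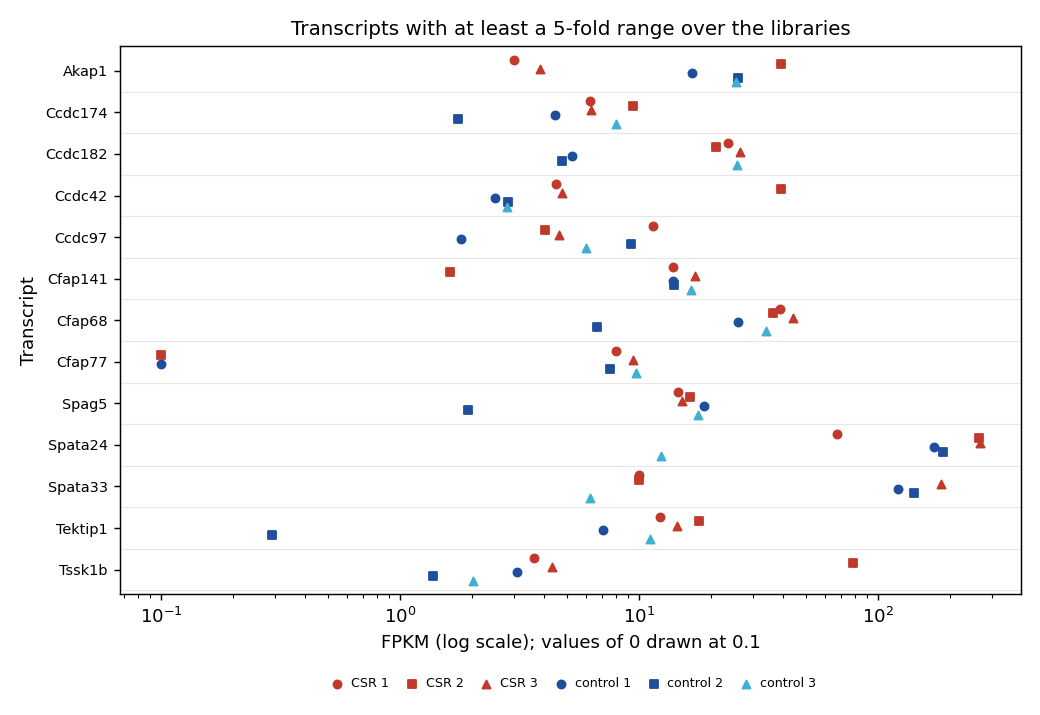
FPKM (log scale) in each library for the 13 transcripts with a mean of at least 5 FPKM and at least a 5-fold range, with values of 0 drawn at 0.1. The libraries that stand apart differ from gene to gene: CSR 2 for *Tssk1b* and *Ccdc42*, control 2 for *Tektip1* and *Spag5*, control 3 and CSR 1 for *Spata24*.

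Zeros were few in the set. Of the 132 transcripts, 117 were above 0 in all 6 libraries, and 1 was listed at 0 in all CSR and above 0 in all control libraries, against 2.88% of all listed transcripts. The reverse was found for 0 of the 132, against 0.0143%. The 1 transcript was *Akap12* NM_001033653, a transcript of a kinase A scaffold of the cell cortex, with 0.789, 2.01 and 1.48 FPKM in controls. The other *Akap12* transcript, NM_057103, read 39.9, 36.3 and 36.6 FPKM under CSR and 32.3, 31.1 and 42.2 in controls, so the zero is one of a transcript and not of the gene. *Spag9*, a scaffold of JNK signalling, was at 0 in all CSR libraries and in control library 3, with 1.21 and 1.34 FPKM in controls 1 and 2. An exact 0 can be a failed estimate, and no fold is given. The 11 transcripts that did not pass the filter were *Akap12* NM_001033653, *Catsperg*, *Spag9* and 8 *Ccdc* transcripts, among them *Ccdc32*, at 0.181, 0.103 and 0.159 FPKM under CSR and 1.02, 1.51 and 0.851 in controls.

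In the set, 4 genes had 2 transcripts each, and these did not always move alike. Beside *Odf2* and *Akap12*, *Tsga10ip* NM_001270737 read 33.6, 30.7 and 28.7 FPKM under CSR and 22.3, 20.2 and 30.7 in controls, while NM_001270736 read 5.47, 7.18 and 4.06 and 4.85, 5.85 and 8.04. *Ccdc166* NM_001130509 read 9.20, 12.4 and 15.7 FPKM under CSR and 15.3, 12.3 and 12.7 in controls, and NM_001163519 6.36, 5.14 and 4.65 and 2.22, 3.67 and 5.60. Reads of one gene's transcripts, of close relatives and of overlapping genes can be divided differently by an estimate of transcript levels, so these values are less certain than those of other genes. *Spata31* and *Spata31f3*, relatives by name, read nearly alike in each library: 130, 150 and 166 FPKM under CSR and 108, 110 and 141 in controls for *Spata31*, and 132, 152 and 165 and 117, 116 and 141 for *Spata31f3*.

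Other genes of the tail, from a list of axoneme, fibrous sheath and assembly genes outside these names, were read from the same fit. Of its 97 listed transcripts 92 were tested, and 0 passed the adjusted threshold by limma, with 14 at an unadjusted p under 0.05 (15.2%, against 13.2% of all tested transcripts). Of these 92, 47 were higher and 45 lower in CSR, with a median log2 fold change of 0.01; 11 were higher (12.0%, against 8.96%) and 13 lower (14.1%, against 12.6%) without overlap. Without control library 3, limma called 5 of the 92 (5.43%, against 4.58%), 4 higher and 1 lower. The highest levels were those of *Oaz3*, a spermatid antizyme, at 4528, 4287 and 4210 FPKM under CSR and 2148, 2894 and 4374 in controls, *Smcp*, a protein of the mitochondrial capsule, at 2474, 2919 and 3873 and 2199, 2153 and 3340, and *Gapdhs*, the sheath's glycolytic enzyme, at 558, 585 and 459 and 395, 487 and 541. In all 3 genes, controls 1 or 2 held the lowest value and control library 3 lay within the CSR range. For *Gapdhs*, control library 2 lay within that range too. *Oaz3* and *Gapdhs* are also among the spermatid markers summed above, so their values are not a separate observation.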

How the data were processed

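RNA was measured in 3 CSR and 3 control testis libraries, grouped and numbered as labelled. The authors deposited FPKM values per RefSeq transcript; the submitters' processing notes name StringTie, HISAT2, Trimmomatic and rn6, without versions, and how the 7016 transcripts were selected is not given in the sources used here. Symbols came from a RefSeq table (GRCr8) by accession (6911 matched, 105 did not). Read depth is unknown, and the precision rests on the number of libraries.

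Transcripts that reached 1 FPKM in 3 or more libraries entered 1 fit on log2(FPKM + 1) in limma 3.58.1 under R 4.3.3 with a trended prior variance; fold changes on this scale understate those of low transcripts. The adjusted p is Benjamini-Hochberg over all 5657, with a threshold of 0.05. The fit was tested on simulated data. The transcripts and gene lists were chosen with earlier results of these data known. Named are transcripts past the threshold, the 10 highest and 10 lowest log2 fold changes without overlap, up to 3 transcripts per name group with the highest levels, and those at 0 in one whole group. Alternatives were other pseudocounts, filters, scalings and moderation, a replicate block, and libraries left out or merged. Methylation tables of 12 libraries were not analysed here, since no rn6 annotation was used to place these genes.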

Additional observations from a re-analysis of the deposited data

How the results depend on the processing

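The count of called sperm-named transcripts was 0 in the fit reported and in 17 of 18 other fits with limma. It was 9 without control library 3, where 4.58% of all tested transcripts were called, and ran from 0 to 9 over the fits that leave out 1 library. The count over all tested transcripts was 25, and it was 11 with a pseudocount of 0.1, 10 among transcripts at 1 FPKM or more in all 6 libraries, 16 among those above 0 in all libraries, 77 without the mean-variance trend, 7 with control libraries 1 and 2 as 1 library and 16 without both of them (chosen after seeing the data, with the 1 control library left assumed to vary like the CSR libraries), and from 4 to 259 with 1 library left out. The cause was not tested. With the replicate block it was 0 (715 unadjusted p-values under 0.05) and the sperm-named count was 0. The correlations of same-numbered deviations were 0.03, 0.01 and 0.04, against -0.06 to 0.03 for differently numbered ones. With 3 libraries per group these values showed no clear pairing by number and cannot exclude it. The median log2 fold change of the set ran from 0.07 to 0.21 with 1 library left out, and the median level from 14.6 to 15.6 FPKM. Transcripts at 0 in all CSR and above 0 in all control libraries numbered 1, and 1 to 3 with 1 library left out. Of 356 values of the 20 named log2 fold changes under alternatives, 0 reversed and 2 passed the threshold, those of *Tsks* and *Cfap52* without control library 3. These 20 were named because their groups do not overlap, so only the other scalings could have reversed a sign. The 0 is therefore no measure of how stable they are. Older symbols would raise the set from 132 to 164 transcripts, with 0 called. Unknown depth limits what can be said of transcripts under about 1 FPKM.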
